A study of Mus musculus with 6 samples.

Results

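The 9 genes described here encode ligands, receptor chains and a feedback inhibitor of interleukin-6 (IL-6) type cytokine signalling: the ligands Lif, Il6, Il11, Cntf and Clcf1, the receptor chains Osmr, Lifr and Il6st, and the inhibitor Socs3. They were chosen by name, found by matching Ensembl mouse gene IDs to symbols, and all 9 were among the 54109 genes of each count table. Messenger RNA was sequenced from 6 cultures of Msc80, a mouse Schwann cell line grown in medium with serum, to find genes that depend on Sox10, a transcription factor of neural crest and glia. The 3 control cultures had the genotype Sox10 wt, and in the 3 Sox10ko cultures the gene was inactivated with CRISPR/Cas9. The labels call the Sox10ko source a cell clone and do not give the number of clones, so loss of Sox10 and a difference between clones cannot be told apart.

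Cytokines of the IL-6 family act through receptor complexes that share gp130, the product of Il6st. LIF, CNTF and CLCF1 bring gp130 together with the LIF receptor (Lifr), oncostatin M can use the oncostatin M receptor (Osmr), and IL-6 and IL-11 use gp130 with binding chains of their own. The complexes activate JAK kinases and STAT transcription factors, chiefly STAT3, which induces SOCS3, and SOCS3 binds gp130 and damps the signal. In nerve, Schwann cells are a known source of LIF and IL-6 after injury and of CNTF in the myelinating state.

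The libraries held between 32328618 and 41834431 counted reads, and 1 read was worth at least 0.0235 CPM (the read count over the TMM-scaled library size). Sox10 fell from 617 ± 10.5 to 88.7 ± 25.1 CPM (SD, n = 3 in each group, as throughout; edgeR adjusted p = 0.000186). Of 10 Schwann cell markers, Sox10 included, 7 were lower and 0 higher, and Mbp, Ncam1 and L1cam were not called. Their summed level was 4756 to 5277 CPM in control and 428 to 642 CPM in Sox10ko. Ngfr made up most of the control sum (2965 ± 272 CPM). L1cam (235 ± 81.1 CPM) and Ncam1 (155 ± 52.2 CPM) were the largest parts of the Sox10ko sum. Fold changes are log2 of Sox10ko over control ± SE from edgeR's quasi-likelihood test, and a gene is called at an adjusted p under 0.05 (Benjamini-Hochberg over all 15427 tested genes).

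Il6 and Lifr were higher in Sox10ko, Lif, Clcf1 and Il6st were lower, and Il11, Cntf and Socs3 were not called. Osmr had too few reads to be tested, so that these are 5 calls among 8 tested members. Over all tested genes 32% were called, 17.3% higher and 14.7% lower. The median log2 fold change was -0.49 for the 8 tested members and 0.02 for all tested genes. The groups did not overlap in 5 of the 8, against 49.3% of all tested genes. Il6 had enough reads in all 3 Sox10ko libraries but in only 2 control libraries, so it entered the test through the group where it was high and lends no support to these counts.

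**Figure D1:**
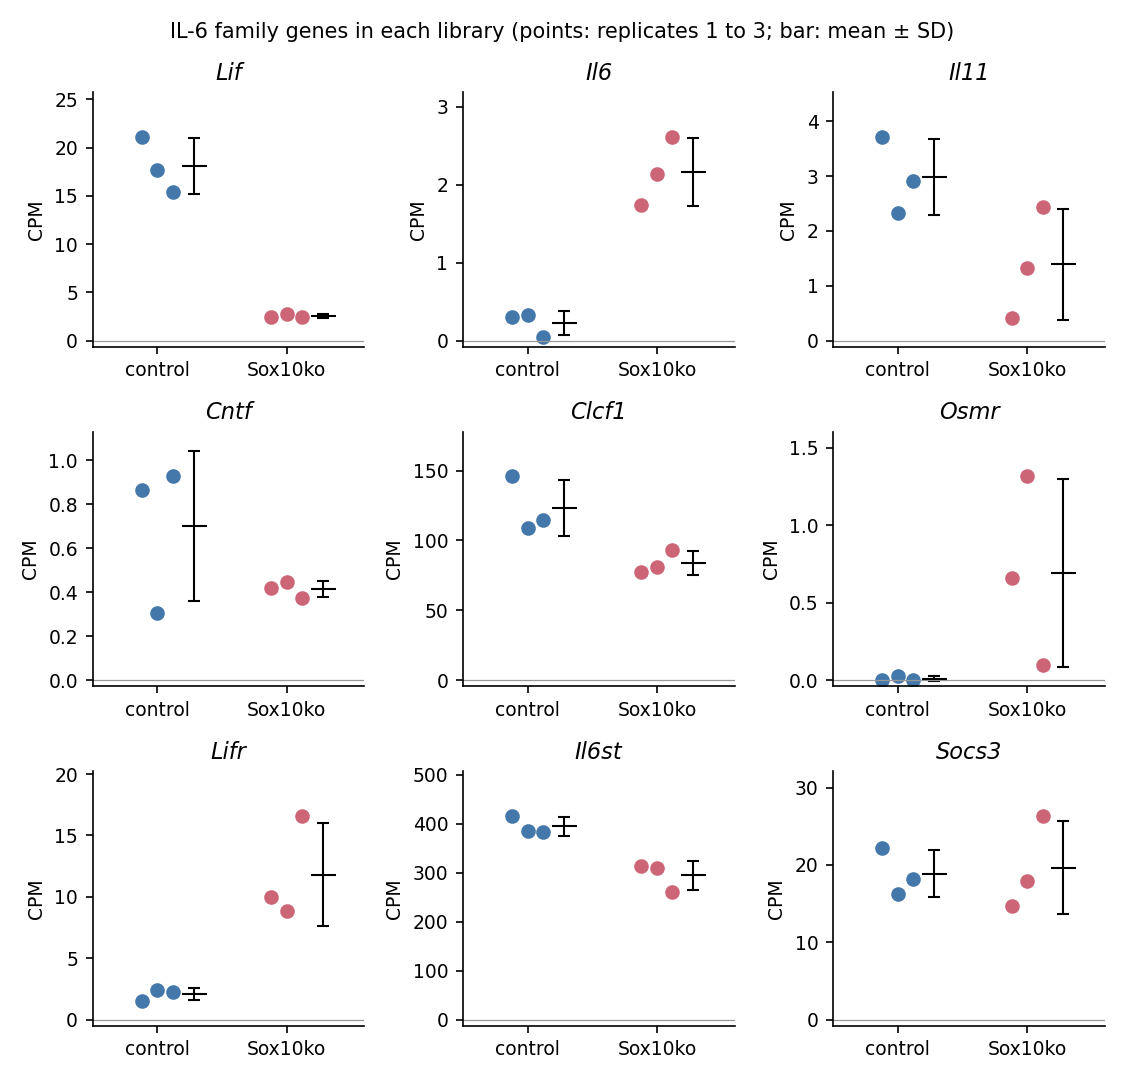
CPM of each gene on a linear axis, with control libraries in blue, Sox10ko libraries in red (points for replicates 1 to 3) and mean ± SD as black bars. Lif, Clcf1 and Il6st lie lower in each Sox10ko library than in any control library, Il6, Lifr and Osmr lie higher, and the groups of Il11, Cntf and Socs3 overlap.

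The promoters of 4 ligand genes are printed because Lif and Il6, which changed in opposite directions, share a motif there with Il11 and Cntf. Each is the 250 bases before a RefSeq transcription start (GRCm38.p6), 5′ to 3′ on the strand of the gene. The windows are chr11:4257318-4257567 (plus strand) for Lif, chr5:30012864-30013113 (plus strand) for Il6 and chr19:12765633-12765882 (minus strand) for Cntf. For Il11 the window is chr7:4778142-4778391 (minus strand). It precedes the downstream one of the 2 listed Il11 starts and lies inside the annotated gene. Capitals mark matches on either strand to the AP-1 motif TGANTCA, the SOX motifs ACAAAG and ACAATG and the C/EBP motif TTGCNNAA.
Lif: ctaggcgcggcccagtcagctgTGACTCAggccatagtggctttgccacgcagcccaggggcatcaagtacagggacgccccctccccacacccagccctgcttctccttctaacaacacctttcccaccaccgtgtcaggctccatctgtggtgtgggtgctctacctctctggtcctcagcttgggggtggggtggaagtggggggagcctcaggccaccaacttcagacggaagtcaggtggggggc
Il6: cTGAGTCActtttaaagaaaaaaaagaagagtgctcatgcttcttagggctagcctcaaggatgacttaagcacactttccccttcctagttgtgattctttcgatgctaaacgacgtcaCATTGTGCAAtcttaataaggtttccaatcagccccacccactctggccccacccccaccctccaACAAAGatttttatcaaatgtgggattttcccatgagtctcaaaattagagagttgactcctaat
Il11: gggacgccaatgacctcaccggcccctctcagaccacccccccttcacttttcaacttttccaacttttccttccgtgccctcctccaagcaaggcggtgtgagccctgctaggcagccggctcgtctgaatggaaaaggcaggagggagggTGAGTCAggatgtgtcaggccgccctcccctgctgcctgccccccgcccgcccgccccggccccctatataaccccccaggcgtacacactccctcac
Cntf: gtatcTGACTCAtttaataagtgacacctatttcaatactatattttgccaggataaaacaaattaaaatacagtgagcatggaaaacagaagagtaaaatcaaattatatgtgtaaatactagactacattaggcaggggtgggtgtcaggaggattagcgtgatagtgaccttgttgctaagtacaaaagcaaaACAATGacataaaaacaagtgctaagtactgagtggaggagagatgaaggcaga

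The 4 windows were picked for their AP-1 match, which 4 of the 8 genes with a RefSeq window held, at 4 of 10 starts, and 6.75% of the 32851 mouse promoter windows of that length. The windows of the upstream Il11 start, Osmr, both Lifr starts, Il6st and Socs3 held none. In Lif and in Il11 it is the only stretch in capitals, at bases -228 to -222 and -98 to -92, where -1 is the base before the start. In Il6 the AP-1 match stands at -249 to -243, 2 SOX matches at -130 to -125 and -65 to -60, and a C/EBP match at -128 to -121 that overlaps the first SOX match. In Cntf the AP-1 match stands at -245 to -239 and a SOX match at -54 to -49. RefSeq windows were found for 8 of the 9 genes, with 10 starts in all, and the gene not matched was Clcf1. SOX letters stood in windows of 4 of the 8 genes (Il6, Cntf, Lifr and Socs3), at 4 of 10 starts, and in 25.2% of all windows. C/EBP letters stood in Il6, at 1 of 10 starts, and in 9.56% of all windows. The STAT motif TTCNNNGAA, in 7.02% of all windows, matched in Socs3 alone among the 8, as TTCTTAGAA at -154 to -146. The NF-kB motif (GGG, any 5 bases, CC) is left out of the capitals because 45.8% of all windows hold it. It matched in 6 of the 8 genes, Lif and Il6 among them, at 7 of 10 starts. The CRE TGACGTCA, the E-box CACGTG and the TATA box letters TATAAA matched in none of the 10 windows, and in 1.55%, 6.02% and 12.4% of all windows. A match describes letters and shows no binding.

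Lif encodes leukaemia inhibitory factor (ENSMUSG00000034394, plus strand of chromosome 11 from 4257557 to 4272514, GRCm38, GENCODE M21). The control libraries gave 21.1, 17.7 and 15.4 CPM in replicate order, and the Sox10ko libraries gave 2.40, 2.77 and 2.39 CPM. Every Sox10ko library lay far under every control library, and the Sox10ko values were close to each other. Lif fell 7.16-fold (log2 fold change -2.84 ± 0.18, edgeR adjusted p = 0.000122, 95% interval -3.27 to -2.41). In bulk RNA, fewer cells of a type and less RNA per cell cannot be told apart.

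Il6 encodes interleukin-6 itself (ENSMUSG00000025746, plus strand of chromosome 5 from 30013114 to 30019981). The control libraries held 11, 13 and 2 reads, or 0.298, 0.333 and 0.0488 CPM, and the Sox10ko libraries 58, 91 and 105 reads, or 1.74, 2.14 and 2.62 CPM. Each Sox10ko library was higher than each control library, at a level that stayed low. Il6 rose 9.51-fold (log2 fold change 3.25 ± 0.56, edgeR adjusted p = 0.00481). The ratio of its pooled reads was 9.83, with an exact 95% interval of 6.56 to 15.3 that covers counting error only.

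Il11 encodes a cytokine of stromal cells (ENSMUSG00000004371, minus strand of chromosome 7 from 4772373 to 4782859). Control gave 3.71, 2.33 and 2.91 CPM and Sox10ko gave 0.419, 1.31 and 2.44 CPM. The third Sox10ko library fell within the control range and the first lay far beneath it. The log2 fold change of -1.09 ± 0.55 was not called (edgeR adjusted p = 0.175, 95% interval -2.39 to 0.21). Without Sox10ko replicate 3 it was -1.77 and called (edgeR adjusted p = 0.0443).

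Cntf encodes ciliary neurotrophic factor (ENSMUSG00000079415, minus strand of chromosome 19 from 12763660 to 12765632). Control gave 0.868, 0.307 and 0.928 CPM and Sox10ko gave 0.419, 0.446 and 0.374 CPM. Control replicate 2 was the lowest of the 6 libraries, the groups overlapped, and the log2 fold change of -0.76 ± 0.44 was not called (edgeR adjusted p = 0.235, 95% interval -1.80 to 0.29). These levels are uncertain, because 847 of the 1073 exonic bases of Cntf also belong to Zfp91 on the same strand, a gene with a mean of 309 CPM and a log2 fold change of -0.05 ± 0.10.

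Clcf1 encodes cardiotrophin-like cytokine factor 1 (ENSMUSG00000040663, plus strand of chromosome 19 from 4214238 to 4223490). Control gave 146, 109 and 115 CPM and Sox10ko gave 77.4, 81.0 and 93.3 CPM. The groups stood apart by a small gap, and Clcf1 fell 1.47-fold (log2 fold change -0.56 ± 0.14, edgeR adjusted p = 0.0207). The call was lost without Sox10ko replicate 1 (edgeR adjusted p = 0.0524). Of its 3806 exonic bases, 311 also belong to another gene model on the same strand. That model is not among the 54109 counted genes, unlike Zfp91 beside Cntf, and its bearing on the reads of Clcf1 was not tested.

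Among the receptor chains, Il6st, the gene of gp130 (ENSMUSG00000021756, plus strand of chromosome 13 from 112464070 to 112510086), gave 416, 385 and 382 CPM in control and 313, 309.6 and 260.4 CPM in Sox10ko. No Sox10ko library reached a control library, and Il6st fell 1.34-fold (log2 fold change -0.42 ± 0.11, edgeR adjusted p = 0.0220). The call was lost without control replicate 1, 2 or 3 (edgeR adjusted p = 0.0727, 0.0506 and 0.0619).

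Lifr, the gene of the LIF receptor chain (ENSMUSG00000054263, plus strand of chromosome 15 from 7090614 to 7197489), gave 1.55, 2.43 and 2.22 CPM in control and 10.0, 8.83 and 16.6 CPM in Sox10ko. The third Sox10ko library was the highest, and the lowest one lay well over every control. Lifr rose 5.70-fold (log2 fold change 2.51 ± 0.31, edgeR adjusted p = 0.00130, 95% interval 1.78 to 3.24). The ligand gene Lif and the receptor gene Lifr thus differed from control in opposite directions in each Sox10ko library.

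Osmr, the gene of the oncostatin M receptor chain (ENSMUSG00000022146, minus strand of chromosome 15 from 6813577 to 6874969), had 0, 1 and 0 reads in the control libraries and 22, 56 and 4 in the Sox10ko libraries. Its reads came mostly from the first and second Sox10ko libraries. The pooled 82 reads against 1 gave a ratio of 82.5 (exact 95% interval 14.4 to 3299, counting error only). Without Sox10ko replicate 2 the ratio was 41.3, and without control replicate 1 or 3 it was 56.5 or 53.6. Without control replicate 2, which held the only control read, Osmr was at least 18.3-fold higher, set against 3 counts over the control group. With no filter on low counts its log2 fold change was 5.85 ± 1.10 (edgeR adjusted p = 0.00150), a value that rests on its Sox10ko reads.

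Socs3, the feedback inhibitor (ENSMUSG00000053113, minus strand of chromosome 11 from 117966079 to 117970047), gave 22.2, 16.3 and 18.2 CPM in control and 14.7, 17.9 and 26.4 CPM in Sox10ko. The Sox10ko libraries spread to both sides of the controls. The log2 fold change was 0.06 ± 0.23 (edgeR adjusted p = 0.876, 95% interval -0.49 to 0.60), and its sign turned without control replicate 2 (-0.06) or Sox10ko replicate 3 (-0.22).

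**Figure D2:**
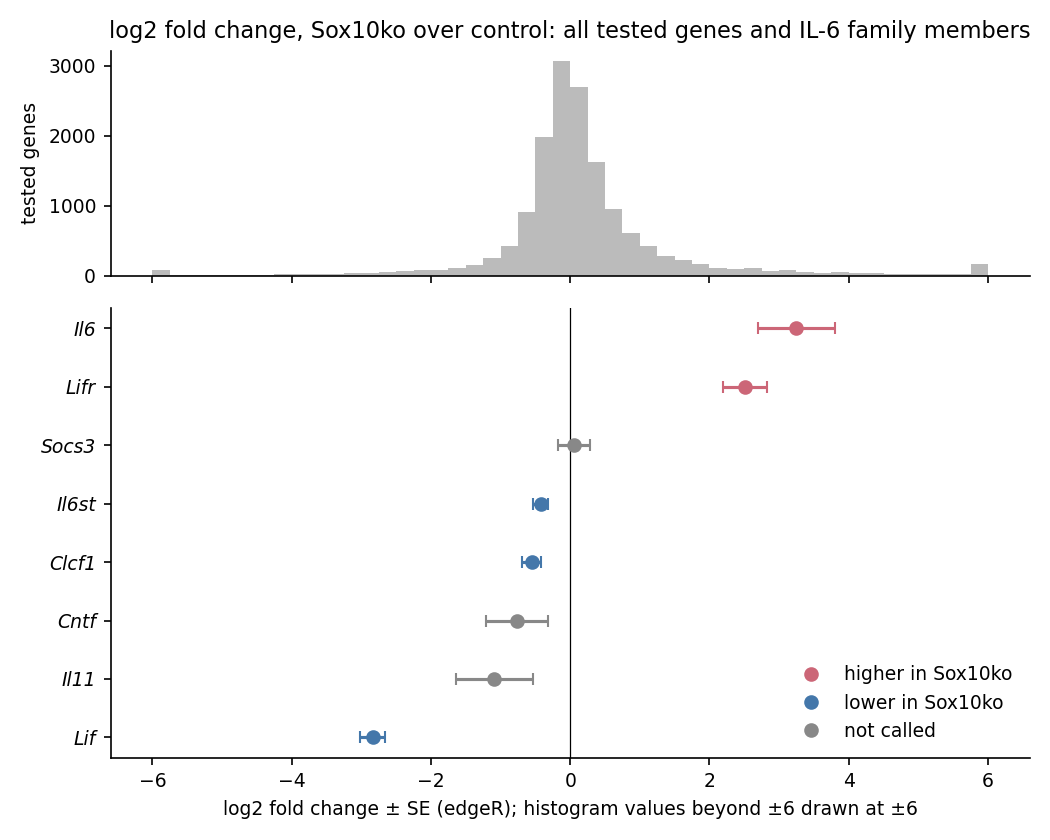
The upper panel counts all 15427 tested genes by log2 fold change of Sox10ko over control (values beyond 6 in either direction are drawn at 6), and the lower panel shows the 8 tested members on the same axis with their SE, red where higher, blue where lower and grey where not called. Lif at -2.84, Lifr at 2.51 and Il6 at 3.25 lie far from 0, and Clcf1 and Il6st lie close to it.

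Levels of different genes were compared per length, as RPKM (CPM divided by exonic length in kilobases). In control the order of mean levels was Il6st at 35.6 ± 1.69 RPKM, Clcf1 at 32.4 ± 5.21, Socs3 at 6.54 ± 1.03, Lif at 4.15 ± 0.666, Il11 at 1.43 ± 0.334, Cntf at 0.653 ± 0.319, Lifr at 0.192 ± 0.0430, Il6 at 0.0934 ± 0.0638, and Osmr last. Il6st and Clcf1 overlapped, and the other neighbours in that order did not. The place of Cntf is uncertain in both groups, because 847 of its 1073 exonic bases also belong to Zfp91 and RPKM divides by all 1073. In Sox10ko the order began alike, with Il6st at 26.5 ± 2.66 RPKM, Clcf1 at 22.0 ± 2.19 and Socs3 at 6.79 ± 2.09. Lifr came next at 1.10 ± 0.389 RPKM, then Il6 at 0.891 ± 0.181, Il11 at 0.669 ± 0.487 and Lif at 0.579 ± 0.0498, with Cntf and Osmr at the end. Il6st again overlapped Clcf1, and from Lifr down to Lif each gene overlapped the next.

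Ratios of RPKM within a library set these levels side by side. Lif over Il6 was 39.5, 29.7 and 176 in the control libraries and 0.770, 0.724 and 0.510 in the Sox10ko libraries, so Il6 was the higher of the pair per length in each Sox10ko library. Il6st over Lifr was 262, 154 and 167 in control and 30.4, 34.1 and 15.2 in Sox10ko. Clcf1 over Lif was 7.90, 7.04 and 8.53 in control and 36.9, 33.4 and 44.6 in Sox10ko.

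**Figure D3:**
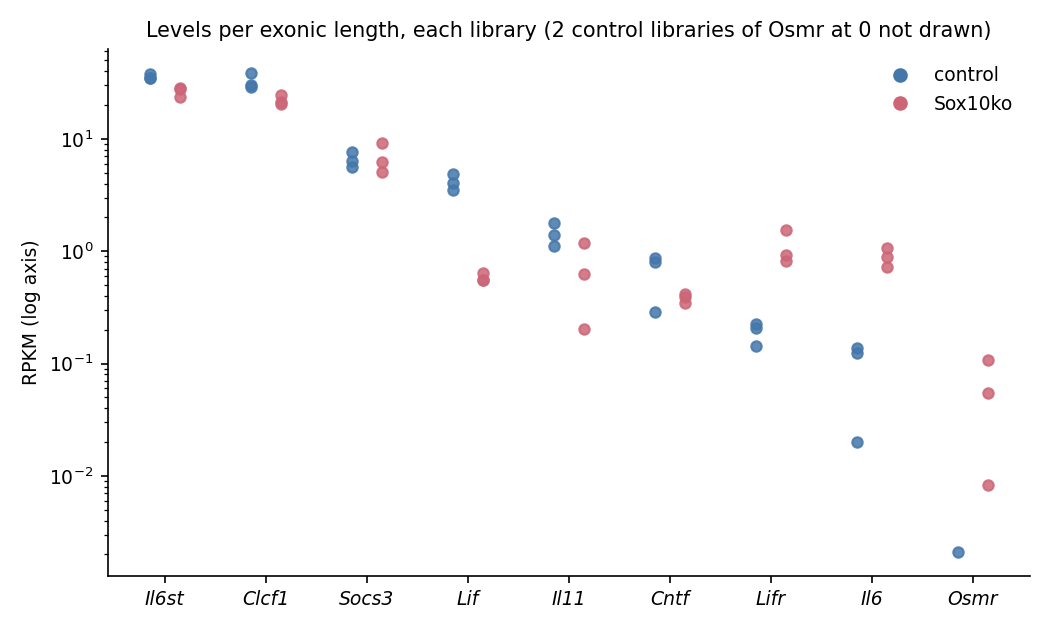
RPKM of each member in each library on a log axis, control in blue and Sox10ko in red, with genes ordered by their control mean. Each Sox10ko value of Lif lies under each Sox10ko value of Lifr and Il6, while Il6st and Clcf1 stay highest, and the 2 control libraries of Osmr at 0 are not drawn.

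Among further ligand genes of the family, Ctf1, the cardiotrophin 1 gene, stood at 0.947 ± 0.381 CPM in control and 1.25 ± 0.913 CPM in Sox10ko (edgeR adjusted p = 0.623), and its log2 fold change of 0.39 ± 0.54 turned to -0.39 without Sox10ko replicate 1. Osm, which encodes oncostatin M, had 0 reads in all 6 libraries.

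Of 11 further receptor chain genes, 5 were tested and 0 were called by edgeR, DESeq2 or limma-voom, with 1 at an unadjusted edgeR p under 0.05, where 32% of all tested genes were called by edgeR. Il6ra, the binding chain of IL-6, gave 19.2, 17.2 and 19.8 CPM in control and 18.3, 9.37 and 13.2 CPM in Sox10ko. The first Sox10ko library lay among the controls and the others beneath them (edgeR adjusted p = 0.177, and 0.0268 without that library). Cntfr, the binding chain of CNTF, stood at 1.36 ± 0.439 and 0.685 ± 0.428 CPM (edgeR adjusted p = 0.172), 1.96-fold lower, and 2.95-fold lower without Sox10ko replicate 3 (edgeR adjusted p = 0.0464). Il12rb1, a chain of the IL-12 receptor, stood at 2.14 ± 0.630 and 0.761 ± 0.836 CPM (edgeR adjusted p = 0.175), 2.78-fold lower, and 7.65-fold lower without Sox10ko replicate 2 (edgeR adjusted p = 0.00951). Lepr, the leptin receptor gene, stood at 1.53 ± 0.290 and 0.890 ± 0.0835 CPM (edgeR adjusted p = 0.0571). Among the chains with too few reads to be tested, a pair had groups that did not overlap and was picked for that after the values were seen. Il23r, a chain of the IL-23 receptor, had 0, 0 and 2 reads in control and 4, 76 and 38 in Sox10ko, and Il27ra, a chain of the IL-27 receptor, had 2, 6 and 2 and 23, 9 and 20.

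Of 16 genes of JAK kinases, STAT factors and adaptors, 15 were tested, 6 were higher and 0 lower (over all tested genes 17.3% and 14.7%), and the median log2 fold change was 0.32. Stat3, the main STAT gene of this pathway, gave 46.4, 54.4 and 53.0 CPM in control and 89.8, 70.9 and 82.4 CPM in Sox10ko. The groups stood apart, and Stat3 rose 1.58-fold (log2 fold change 0.66 ± 0.12, edgeR adjusted p = 0.00611). Stat5b rose 1.75-fold (edgeR adjusted p = 0.00136) and the kinase gene Tyk2 1.83-fold (edgeR adjusted p = 0.00757). Stat2 rose 1.77-fold (edgeR adjusted p = 0.0180), but was not called without control replicate 1 or 3 (edgeR adjusted p = 0.0608 and 0.0710). Stat5a rose 2.94-fold (edgeR adjusted p = 0.0321), a call that held in the fit without Sox10ko replicate 2 and was lost without each other library (edgeR adjusted p up to 0.114). Stat5b, Stat5a and Stat3 lie together on chromosome 11, between 100780731 and 100939540, and Stat5a overlaps Stat3 on the opposite strand. Whether their calls are independent of each other was not tested. The adaptor gene Grb2, the last of the 6, rose by a log2 fold change of 0.28 ± 0.08 (edgeR adjusted p = 0.0395), and its call was lost without any 1 of the 6 libraries (edgeR adjusted p 0.0668 to 0.188).

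Of 15 inhibitor genes, all were tested, 1 was higher and 3 were lower (over all tested genes 17.3% and 14.7%), with a median log2 fold change of -0.04. Socs1, a relative of Socs3 that inhibits JAK kinases, gave 49.9, 30.6 and 59.7 CPM in control and 3.33, 3.94 and 5.18 CPM in Sox10ko. The groups were far apart, and Socs1 fell 11.2-fold (log2 fold change -3.49 ± 0.29, edgeR adjusted p = 0.000287). Ptpn6, which encodes the phosphatase SHP-1, fell 4.65-fold (edgeR adjusted p = 0.00766), and 7.34-fold without Sox10ko replicate 3. Socs4 fell 1.68-fold (edgeR adjusted p = 0.0448), a call that held in the fit without control replicate 1 and was lost without each other library (edgeR adjusted p up to 0.125). Pias1, an inhibitor of activated STAT, rose 1.26-fold (edgeR adjusted p = 0.0186), and lost its call without control replicate 1, 2 or 3 or Sox10ko replicate 2 (edgeR adjusted p up to 0.105). Cish, a target of STAT5, stood at 0.742 ± 0.187 and 1.70 ± 0.873 CPM (edgeR adjusted p = 0.0931, and 0.0121 without Sox10ko replicate 1).

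Of 29 genes known as STAT3 targets in other cells, 22 were tested, 7 were higher and 5 lower (over all tested genes 17.3% and 14.7%), with a median log2 fold change of 0.31. Gfap, 1 of the 5 lower, had enough reads in all 3 control libraries but in only 1 Sox10ko library. It entered the test through the group where it was high and lends no support to this count or to that over all lists. Serpina3n, a serine protease inhibitor gene of reactive glia, fell 9.25-fold from 143 ± 43.1 to 15.5 ± 4.68 CPM (edgeR adjusted p = 0.000487). Il4ra, the interleukin-4 receptor chain gene, rose 4.30-fold from 39.5 ± 12.3 to 169.8 ± 6.08 CPM (edgeR adjusted p = 0.000700). Tnfaip3, an inhibitor of NF-kB signalling, rose 2.33-fold (edgeR adjusted p = 0.00449), and the stress gene Gadd45g rose 3.32-fold (edgeR adjusted p = 0.00855). Sbno2 rose 1.36-fold (edgeR adjusted p = 0.0164), but was not called without control replicate 1 or 3 (edgeR adjusted p = 0.0758 and 0.0766). Over these lists and that of further ligands and soluble receptors, 23 of 59 tested genes were called, against 32% of all tested genes, and 10 of the 23 were called whichever library was left out.

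**Figure D4:**
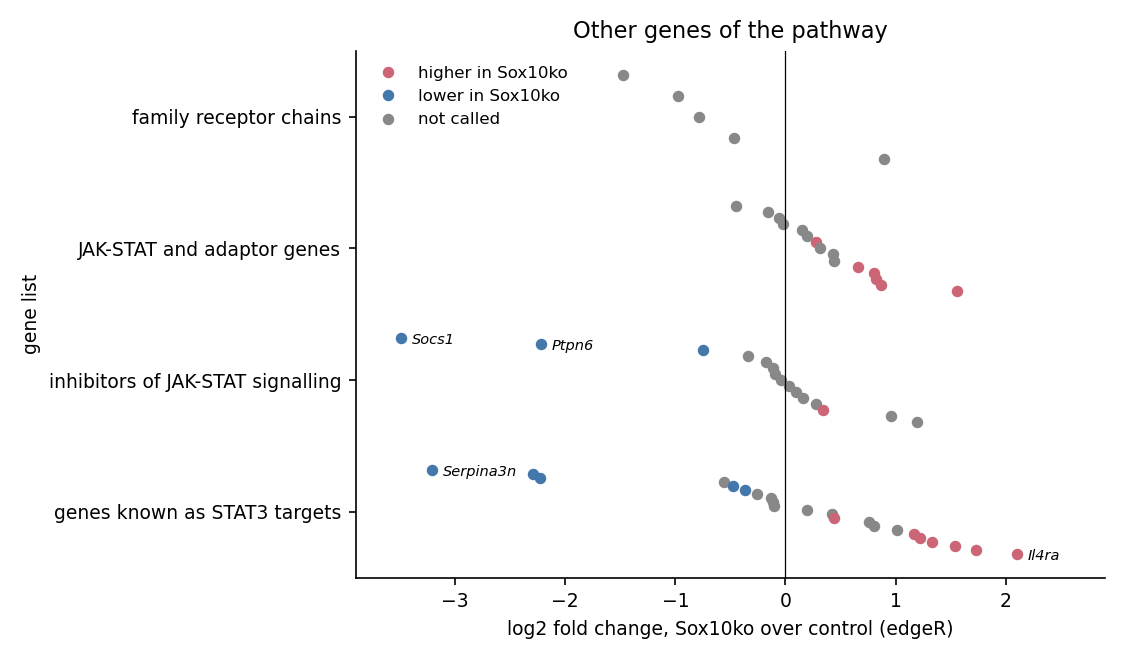
Each point is a tested gene of the receptor chain, JAK-STAT and adaptor, inhibitor or STAT3 target list, placed by its log2 fold change of Sox10ko over control, red where higher, blue where lower and grey where not called. All 6 called JAK-STAT and adaptor genes lie to the right of 0, no receptor chain is called, and Socs1 at -3.49 and Serpina3n at -3.21 lie farthest left.

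Markers of other cell types moved between the groups as well. Of 9 macrophage and leukocyte markers, 3 were tested and 2 were higher (Cd68 and Lyz2), with a summed level of 6.25 to 8.08 CPM in control and 19.4 to 27.5 CPM in Sox10ko, while Itgam and Cd3e had 0 reads in all 6 libraries. Of 5 fibroblast markers, 3 were tested and Col1a1 was higher, with a summed level of 282 to 331 CPM in control and 646 to 1885 CPM in Sox10ko, and Dcn and Lum were too low to be tested. Of 5 smooth muscle markers, all were tested and 4 were higher, with a summed level of 0.759 to 1.03 CPM in control and 118 to 670.3 CPM in Sox10ko. Acta2 carried that sum (357 ± 270.1 CPM in Sox10ko), while Myh11, Cnn1 and Tagln stood at 1.01 ± 0.149, 0.753 ± 0.384 and 0.602 ± 0.496 CPM there. Des rose from 0.384 ± 0.0534 to 18.8 ± 8.47 CPM (edgeR adjusted p = 0.000251), with enough reads for the test in each library of both groups. Of 5 epithelial markers, 2 were tested and both were higher (Krt7 and Krt8), with a summed level of 0.0813 to 0.256 CPM in control and 75.2 to 103 CPM in Sox10ko, nearly all of it Krt7. Acta2, Myh11, Cnn1, Tagln, Krt7 and Krt8 entered the test through their Sox10ko reads. Of 5 endothelial markers, 2 were tested and Cdh5 was lower, with sums of 2.13 to 2.39 CPM and 0.389 to 0.728 CPM. Cdh5, with 57, 60 and 75 reads in control and 0, 11 and 0 in Sox10ko, entered the test through its control reads. Of 5 neuron markers, 4 were tested and Tubb3 was lower, with sums of 89.0 to 100.1 CPM and 55.4 to 71.0 CPM. Tubb3 carried most of these sums (87.9 ± 13.2 and 50.2 ± 13.9 CPM). Snap25, Syt1 and Elavl3 went the other way, with log2 fold changes of 0.46, 1.18 and 1.12, and were not called. Rbfox3 had 0 reads in all 6 libraries. Of 5 melanocyte markers, Mitf and Pmel were tested and neither was called (edgeR adjusted p = 0.915 and 0.492), with sums of 17.3 to 24.8 CPM and 14.2 to 29.2 CPM. The part of these shifts in the changes of the cytokine and receptor genes was not tested.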

How the data were processed

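Raw read counts per Ensembl gene ID, 1 table per library, were deposited by the authors as whole numbers. Per the labels' protocols, a stranded mRNA kit was used to prepare the libraries. The submitters' processing notes name STAR 2.6.0c, HTSeq, DESeq2 and mm10 (GRCm38). The sources used here do not give their roles, the annotation release or the strand setting, so overlapping genes are uncertain.

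Symbols and coordinates came from GENCODE M21, which matched 54042 of 54109 IDs, and promoters from RefSeq. Genes passing filterByExpr were scaled with TMM and tested, two-sided, with the quasi-likelihood F test of edgeR 4.0.16 (R 4.3.3), with 3 libraries per group and no covariate. The SE is the log2 fold change over the square root of F. The titles name biological replicates without saying how the cultures were separated, so p-values measure the spread between these cultures. No pair in a group matched within sampling noise (chi-square per degree of freedom at least 24.7). Reads carry no molecular identifiers, so intervals and floors cover counting error only.

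The members and lists were chosen with earlier results of these data known. Named were the 9 members, Sox10, up to 5 genes per pathway list by adjusted p, family ligands and receptors of at least 1 CPM in a group, and the genes nearest to each called member in centred log2 CPM (prior count 2). Some genes that this rule names are not reported here. Alternatives were DESeq2 1.42.0 size factors, library size, no filter, a mean of at least 5 CPM, the DESeq2 test, limma-voom (limma 3.58.1), a replicate block, chromosome medians removed, and leaving out each library.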

Additional observations from a re-analysis of the deposited data

How the results depend on the processing

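The calls for Lif, Il6 and Lifr held under every alternative that could test them (14, 13 and 14 of them), with log2 fold changes of -2.97 to -2.73, 2.74 to 3.62 and 2.18 to 2.67. Il6, Il11 and Cntf were not tested with a mean of at least 5 CPM, which left 1 member higher and, of the pathway genes, 5 lower in place of 8. Leaving out libraries in turn gave -0.65 to -0.44 for Clcf1, -0.48 to -0.35 for Il6st, -1.77 to -0.67 for Il11 and -0.22 to 0.22 for Socs3. It gave 2 to 3 members higher and 2 to 4 lower, 7 to 16 pathway genes higher (15 with all libraries) and 3 to 7 lower, and over all genes 1523 to 2531 higher and 1346 to 2188 lower against 2664 and 2275, with the fewest without control replicate 3. The pathway counts that moved by over 1.5 times were 9 and 7 higher without control replicate 1 and 3, and 4 and 3 lower without control replicate 2 and 3. Fewer samples were fitted there. The reversals of Socs3 were -0.06 without control replicate 2 and -0.22 without Sox10ko replicate 3. Removing chromosome medians gave smaller changes, both called, of -0.31 for Il6st (edgeR adjusted p = 0.0463) and -0.43 for Clcf1 (edgeR adjusted p = 0.0341). With a replicate block, Clcf1 (-0.55, edgeR adjusted p = 0.0568) and Il6st (-0.43, edgeR adjusted p = 0.0510) were no longer called, which left 1 member lower, 9 pathway genes higher and 5 lower, and 1955 genes higher and 1582 lower in all. The block costs residual degrees of freedom, and the labels do not say whether same-numbered cultures were handled together. Deviations of same-numbered libraries from their group means correlated at -0.21, -0.10 and 0.07 for replicates 1, 2 and 3, over 10236 genes. Only the replicate 3 libraries correlated best with their own number. With 3 libraries per group, these correlations cannot decide whether the cultures were paired. Osmr was tested only without the filter or when certain libraries were left out, each time through its Sox10ko reads. Depth limits Il6, Cntf and Osmr, with 26, 82 and 1 control reads.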

Other observations

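Among 9857 genes of at least 5 CPM on average, predicted names left out, the profile nearest to Lif over the 6 libraries was that of Tenm3, a teneurin adhesion gene, which stood at 503 ± 60.9 CPM in control and 66.3 ± 2.30 CPM in Sox10ko. Its root mean square difference from Lif in centred log2 CPM was 0.103. Itga1 (an integrin chain), Greb1, Dclk1 and Slc35f1 followed at 0.152, 0.186, 0.199 and 0.241. Nearest to Lifr were Maoa (monoamine oxidase A, 52.0 ± 5.52 and 266 ± 47.8 CPM), Tns1 and Ebf1, at 0.205, 0.235 and 0.253. Nearest to Il6 were Nhsl2, Apobr and Adamtsl4, at 0.384, 0.452 and 0.480. For Clcf1 they were Knstrn, Rcc1 and Sbk1, at 0.0365, 0.0530 and 0.0554, and for Il6st Gusb, Urb1 and Nup62, at 0.0446, 0.0457 and 0.0471. These likenesses describe 6 libraries in 2 groups.

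Genes within 200 kb of a member and with at least 1 CPM in a group were counted beside the 32% called over all tested genes (17.3% higher, 14.7% lower). Near Lif, 0 of 6 were higher and 2 lower, near Il6 0 of 5 were higher and 1 lower, near Il11 2 of 12 were higher and 1 lower, near Cntf 0 of 3 were higher and 1 lower and near Clcf1 4 of 17 were higher and 2 lower. Near Osmr 0 of 3 were higher and 1 lower, near Il6st 0 of 2 were higher and 0 lower, near Socs3 2 of 9 were higher and 2 lower, and Lifr had no such neighbour. Near Lif, Tbc1d10a stood at 37.7 ± 2.12 and 16.6 ± 0.911 CPM. Near Osmr, Fyb stood at 135 ± 31.7 and 15.1 ± 8.05 CPM, and Rictor at 69.1 ± 8.40 and 67.7 ± 15.7 CPM. Tbc1d10a, Fyb and Rictor were singled out after their values were seen.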
